A study of Mus musculus with 30 samples.

Results

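The comparison described here set whole forebrain of mice without interleukin-34 (Il34 knockout, KO, 3 animals) against whole forebrain of mice with 1 intact copy of the gene (Il34 heterozygote, Het, 4 animals). These 7 libraries, chosen by the genotype and experiment in the labels, are part of a series of 30. The controls are not wild type, so every value below is the difference between 0 and 1 intact copies of Il34. The Het animals were 1 and 21 (male) and 20 and 23 (female), and the KO animals were 3 (male), 6 and 24 (female). The strain, the age and the design of the deleted allele are not stated in the labels. After saline perfusion the tissue was taken without any sorting of cells. Per the labels' protocols, RNA was extracted with TRIzol, and libraries came from the Takara SMART-Seq v4 kit for low input. Where values of the 7 libraries are listed, Het animals 1, 20, 21 and 23 come first, in this order, followed by KO animals 3, 6 and 24.

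IL-34 is a secreted cytokine that binds CSF1R, the receptor tyrosine kinase on which microglia, the resident macrophages of the brain, depend for their survival. In the forebrain IL-34 is made mainly by neurons, and the other ligand of the receptor, CSF1, mainly by glia. Microglia make up a small share of the cells of the forebrain, so their transcripts are minor components of a whole-tissue library that is dominated by neurons, astrocytes and myelin-forming oligodendrocytes. Whole tissue therefore also reports on the cells around the microglia. In such bulk libraries, fewer cells of a type and less RNA per cell cannot be told apart.

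Total counts were 44.4 to 62.6 M (mega-counts) in the Het libraries and 21.2 to 53.8 M in the KO libraries. The share of counts from mitochondrial genes was 5.05 to 5.39% in Het and 4.70 to 4.91% in KO, so the groups did not overlap in it, and its part in the results below was not tested. Levels are given as counts per M counts (CPM), scaled by the TMM method of edgeR. The deposited gene length was the whole span of a gene, introns included, for 51183 of 51498 matched genes. Of 363 protein-coding genes that lie inside another gene's span on the same strand, 361 (99.4%) were listed at 0 in all 7 libraries. For genes inside a span on the other strand only, this was so for 101 of 614 (16.4%), and for the remaining genes for 2905 of 20585 (14.1%). Irf8, Myd88, Itgam, Adora3 and Tubb3 are among the genes listed at 0 in every library, which gives no information on whether they are expressed.

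The deleted gene serves as a check of the labels. Il34 (ENSMUSG00000031750, GRCm38 chromosome 8, 110741829 to 110805924, minus strand) had 23.5, 19.7, 19.3 and 23.6 CPM in the Het libraries and 6.81, 7.68 and 8.79 CPM in the KO libraries. The KO libraries lay below every Het library, and the fitted KO level was 35.3% of Het. Percentages of Het, here and for the genes that follow, are back-transformed from the log2 fold change of the fit with its sex term, so they can differ from the ratio of the printed CPM means. The log2 fold change, KO minus Het, was -1.5 ± 0.10 (SE; adjusted p = 1.01e-05, edgeR quasi-likelihood F test, Benjamini-Hochberg). Reads were thus still assigned to the span in KO. The part of the gene that was removed is not given in the sources used here. Among 29 other tested genes that lie within 1 Mb of Il34, 22 were level by the interval defined below and 1 passed the test, Fa2h, a myelin lipid enzyme described with the oligodendrocyte genes. Mtss2, whose span ends next to that of Il34, had a log2 fold change of -0.14 ± 0.051 (SE; edgeR with Benjamini-Hochberg adjustment, adjusted p = 0.50). Csf1, the gene of the other ligand, had 13.1, 14.3, 14.8 and 15.1 CPM in Het against 14.2, 14.1 and 16.6 CPM in KO. The groups overlapped, and the interval of the log2 fold change was -0.13 to 0.21. Csf1r itself had 49.1, 44.1, 43.9 and 46.9 CPM in Het against 17.8, 17.8 and 15.2 CPM in KO, a fitted KO level of 37.3% of Het.

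Of 19343 genes tested, 120 passed (0.62%), and 119 of these were lower in KO (0.615%) and 1 higher (0.00517%). At an unadjusted p under 0.05, 970 genes were lower (5.01%) and 471 higher (2.43%). By DESeq2, 167 of 17603 genes were lower (0.949%) and 5 higher (0.0284%). The median log2 fold change over all tested genes was -0.0002. The lower genes were sorted by an independent measure, their enrichment in CD11b-positive microglia isolates over forebrain in the 4 animals of the series given the control antibody anti-gp120, which share no animal with the KO and Het groups. By that measure 913 of 18120 genes (5.04%) were at least 16-fold higher in isolates. Of the 119 lower genes, 100 belonged to this class and 19 did not. Among the 620 genes of the class that could be tested in KO against Het, 100 were lower (16.1%), none was higher by edgeR (7 at an unadjusted p under 0.05), and 514 had a fold change below 0, with a median of -0.38. Among 17038 other genes, 19 were lower (0.112%) and 1 was higher, with a median of 0.0026. The class is not made of microglia genes alone: it also holds Vwf, made by endothelial cells, 4 of 13 tested mural cell markers, 7 of 15 immediate early genes and 5 of 16 genes of the reactive astrocyte list.

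**Figure D1:**
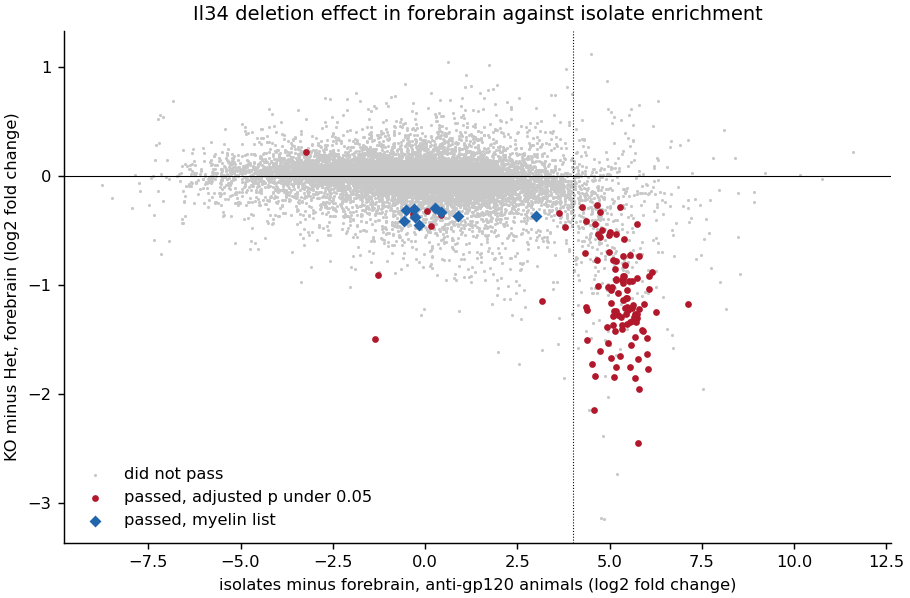
Each point is 1 gene; the x axis is its log2 fold change in microglia isolates against forebrain of anti-gp120 animals and the y axis its log2 fold change in KO against Het forebrain. Of the genes right of the dotted line (16-fold), 100 passed, all lower; the blue diamonds are the 9 myelin genes that passed, at -0.30 to -0.45.

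The median log2 fold change differed with the degree of enrichment. It was -0.29 for genes 4 to 5 log2 units higher in isolates, where 23 of 320 passed (7.19%). It was -0.71 for genes 5 to 6 log2 units higher, where 69 of 212 passed (32.5%). For the 88 genes at 6 or more it was -0.28, with 8 passing (9.09%). Genes 3 to 4 log2 units higher had a median of -0.10 and 4 of 482 passed (0.83%). Among the 100 lower and enriched genes, fitted KO levels were below 25% of Het for 2 genes, 25 to 50% for 62, 50 to 75% for 31 and 75% or more for 5, with a median of 43.8%. Of all 119 lower genes, 117 had every KO library below every Het library. Over all tested genes 5.14% had groups separated in this direction and 9.06% in either direction. Without KO animal 3, 55 genes passed, 54 of them lower and isolate-enriched, and without KO animal 6 these counts were 72 and 64. Animal 3 is the only KO male. Since the sex term is kept, every fit without it takes its KO minus Het values from the females alone.

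Outside the list of homeostatic microglia genes, of which 17 of 19 passed, the lower genes with the smallest p were mostly receptors and endolysosomal proteins of myeloid cells. Cd33, an inhibitory receptor for sialic acid, had 10.5, 10.6, 9.96 and 10.0 CPM in the Het libraries and 3.7, 3.58 and 3.28 CPM in the KO libraries. Its log2 fold change was -1.53 ± 0.092 (SE; adjusted p = 2.97e-06, edgeR with Benjamini-Hochberg adjustment). Mpeg1, which encodes a pore-forming protein of phagocytes, had 18.3, 17.2, 15.7 and 17.2 CPM in Het against 7.58, 6.64 and 7.08 CPM in KO. For both genes the KO libraries lay close together and far below the lowest Het library. Hpgds, the haematopoietic prostaglandin D synthase, had 10.6, 10.5, 11.5 and 11.1 CPM in Het against 3.94, 4.73 and 3.9 CPM in KO, a fitted KO level of 38.9% of Het. Laptm5, a lysosomal membrane protein of blood cells, had 14.9, 13.1, 13.7 and 11.8 CPM in Het against 4.1, 5.25 and 5.8 CPM in KO. Pld4, an endolysosomal nuclease, had 4.53, 4.3, 4.13 and 4.48 CPM in Het against 1.36, 1.91 and 1.33 CPM in KO. All 3 passed, with log2 fold changes of -1.36, -1.41 and -1.48, and with no overlap between groups.

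The group also held receptors and a transporter. Csf3r, the receptor for the granulocyte growth factor G-CSF, had 4.57, 4.24, 4.29 and 4.79 CPM in Het against 1.48, 1.65 and 0.998 CPM in KO. Vsir, an inhibitory checkpoint receptor, had 17.6, 17.7, 17.6 and 18 CPM in Het against 10.3, 10.2 and 8.6 CPM in KO. Its fitted KO level of 55.3% of Het was the highest among the named genes of this paragraph, and Vsir lies within the span of Cdh23 on the other strand. Abcc3, an export pump for organic anions, had 2.79, 2.3, 2.29 and 2.88 CPM in Het against 0.585, 0.779 and 0.57 CPM in KO, and Rasal3, a regulator of Ras in blood cells, had 1.79, 1.61, 1.71 and 1.94 CPM in Het against 0.308, 0.371 and 0.238 CPM in KO. Rasal3 had the lowest fitted KO level of all 119 lower genes relative to Het, 18.3%, with a log2 fold change of -2.45 ± 0.24 (SE; adjusted p = 0.000191, edgeR with Benjamini-Hochberg adjustment). Its low counts make this value less exact than those of Cd33 or Mpeg1, as its SE shows. Gm2629, 1 of 4 long non-coding RNAs among the lower genes, had 8.11, 8.15, 7.14 and 8.38 CPM in Het against 2.59, 2.35 and 2.09 CPM in KO, a fitted KO level of 29.7% of Het. Rnase4, a secreted ribonuclease, had 8.81, 9.82, 8.95 and 10.5 CPM in Het against 4.84, 4.14 and 5.23 CPM in KO, and C1qb and C1qc, 2 of the 3 chains of complement C1q, stood at 41.5% and 43.1% of Het.

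Lists of myeloid genes by function differed in how many members passed. Of 26 haematopoietic signalling genes, 17 were lower and 23 had groups that did not overlap, with a median log2 fold change of -0.84. Examples are Inpp5d, the lipid phosphatase SHIP1 (-0.82), and Unc93b1, the chaperone of endosomal Toll-like receptors (-0.92). Tyrobp, the adaptor of TREM2, is in the list of disease-associated genes as well and had 3.59, 2.33, 2.29 and 2.63 CPM in Het against 0.616, 1.37 and 0.998 CPM in KO, a log2 fold change of -1.4. Of 6 Fc receptor genes 4 were lower (median -1.09). They include Fcgr1 (-1.37), which binds monomeric IgG, Fcgr3 (-0.95), and Fcer1g (-1.24), the shared signalling chain. Of 15 complement genes 5 were lower, among them C1qa, C1qb, C1qc and the integrin chain Itgb2 (-1.49). The list median was -0.16. Over all genes 0.615% were lower, and 5.14% had every KO library below every Het library. Without KO animal 3, 10 of the 26 signalling genes passed, and without KO animal 6, 3 of the complement genes.

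Of 17 transcription factors of microglia tested, 3 were lower: Ikzf1 (5.83, 4.98, 4.47 and 5.19 CPM in Het against 2.68, 2.8 and 2.23 CPM in KO), Spi1, which encodes PU.1 (2.74, 2.33, 2.29 and 1.98 CPM in Het against 1.39, 1.17 and 0.903 CPM in KO), and Maf (30.3, 32.4, 29.4 and 32.2 CPM in Het against 23.9, 25 and 25.6 CPM in KO). Fitted KO levels of Ikzf1 and Spi1 were 51.2% and 51.8% of Het, and that of Maf, which other cells of the forebrain express too, was 78.9%. The list median was -0.25, and without KO animal 3 none of the 3 calls was kept. Of 16 pattern recognition receptors 2 passed, the endosomal RNA sensors Tlr7 (-1.04) and Tlr13 (-1.27), although 14 of 16 had values below 0 and the median was -0.53. Of the 16, 12 had a mean below 2 CPM, and leaving out any 1 library left at most 1 call. Without KO animal 3 the median was -0.26. Of 16 microglia G-protein-coupled receptors and ion channels 3 passed, among them the potassium channel Kcnk6 (-1.02) and the proton channel Hvcn1 (-1.18). Their median was -0.80, and 1 call was left without KO animal 6 or without KO animal 24. Of 19 genes known to rise in disease-associated microglia, 3 were lower (Tyrobp, Trem2 and B2m) and 8 were level, with a median of -0.13. Without any 1 of the KO animals 1 call was left. None of 10 cytokine and chemokine genes passed by edgeR (median -0.32; 4 lower and 0 higher at an unadjusted p under 0.05, DESeq2 calling 0), and Il18, a cytokine of the interleukin-1 family, had 25.1, 28.1, 27.1 and 24.5 CPM in Het against 24.2, 24.4 and 23.6 CPM in KO. Among 15 genes of the TGF-beta pathway, which maintains microglia identity, Tgfbr1, a receptor chain, was lower (36.2, 36.9, 38.8 and 39.1 CPM in Het against 25.9, 29.6 and 24.2 CPM in KO, log2 fold change -0.50) and 10 were level. Tgfbr1 did not pass without KO animal 3. The ligand gene Tgfb1 had a log2 fold change of -0.36 ± 0.12 (SE) and did not pass.

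PU.1 binds DNA through a purine-rich core, and SOX10 and its relatives, which act in oligodendrocytes, bind a short AT-rich element. Letters of each kind were looked for in RefSeq promoter windows of the GRCm38.p6 build, 250 bases before to 50 after a gene's start, on both strands. The PU.1-type letters GAGGAAGT (or ACTTCCTC on the other strand) were in the windows of 13 of the 71 lower and isolate-enriched genes that had a window (18.3%), out of 100, and of 997 of 27025 genes in all (3.69%). Per window the shares were 15.2% and 3.2%. A match is a description of letters and does not show binding. The windows of Hpgds, C1qc and Pld4, the members with the smallest p outside the homeostatic list that hold a match, are printed with the match in capitals.
Hpgds (chr6:65144681-65144980, minus strand): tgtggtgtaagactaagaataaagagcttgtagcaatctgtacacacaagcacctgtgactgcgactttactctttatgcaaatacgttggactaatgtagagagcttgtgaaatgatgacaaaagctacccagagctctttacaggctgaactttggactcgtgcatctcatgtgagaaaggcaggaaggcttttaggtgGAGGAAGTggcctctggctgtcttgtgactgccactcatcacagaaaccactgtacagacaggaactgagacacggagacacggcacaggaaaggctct
C1qc (chr4:136892865-136893164, minus strand): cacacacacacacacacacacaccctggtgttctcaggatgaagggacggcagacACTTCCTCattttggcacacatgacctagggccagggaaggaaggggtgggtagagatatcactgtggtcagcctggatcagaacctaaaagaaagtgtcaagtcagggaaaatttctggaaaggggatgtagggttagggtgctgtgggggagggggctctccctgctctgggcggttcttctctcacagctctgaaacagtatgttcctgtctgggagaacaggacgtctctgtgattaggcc
Pld4 (chr12:112760405-112760704, plus strand): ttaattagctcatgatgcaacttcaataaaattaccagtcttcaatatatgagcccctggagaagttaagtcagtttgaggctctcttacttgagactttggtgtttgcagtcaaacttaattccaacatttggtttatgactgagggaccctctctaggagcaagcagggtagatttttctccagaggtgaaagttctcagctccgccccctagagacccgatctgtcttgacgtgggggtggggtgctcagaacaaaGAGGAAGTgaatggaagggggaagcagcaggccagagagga

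Counted from the start site, the match begins 49 bases before it in Hpgds, 195 before it in C1qc and 9 after it in Pld4. The SOX-type letters AACAAAG (or CTTTGTT) were in 3 of the same 71 genes (4.23%) and in 1806 of all genes (6.68%).

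Isolate-enriched genes of low level were examined as a class, which as said holds genes of other cells too, since whole tissue measures them with few counts. Among those with a mean below 2 CPM over the 7 libraries, 356 could be tested and 26 were lower (7.3%). The corresponding count at 2 CPM and over was 74 of 264 (28%). The median log2 fold change was -0.48 below 2 CPM and -0.28 at 2 CPM and over, and 291 of the 356 low genes lay below 0. These medians are a description only and set no order of effect by level, since the mean that defines the bands includes the KO libraries and a low gene can pass the count filter through the Het libraries alone. Their median SE was 0.32, against 0.12 above. Below 0.5 CPM none of 154 genes passed by edgeR, with a median of -0.52, and 120 lay below 0 (40 lower and 1 higher at an unadjusted p under 0.05). At 0.5 to 1 CPM 6 of 95 passed, and at 1 to 2 CPM 20 of 107 passed. A further 293 isolate-enriched genes had too few counts to be tested. Over all genes with an isolate value, whether enriched or not, the medians were -0.17 below 0.5 CPM (837 genes), -0.064 at 0.5 to 1 CPM (1329 genes) and -0.053 at 1 to 2 CPM (1421 genes).

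**Figure D2:**
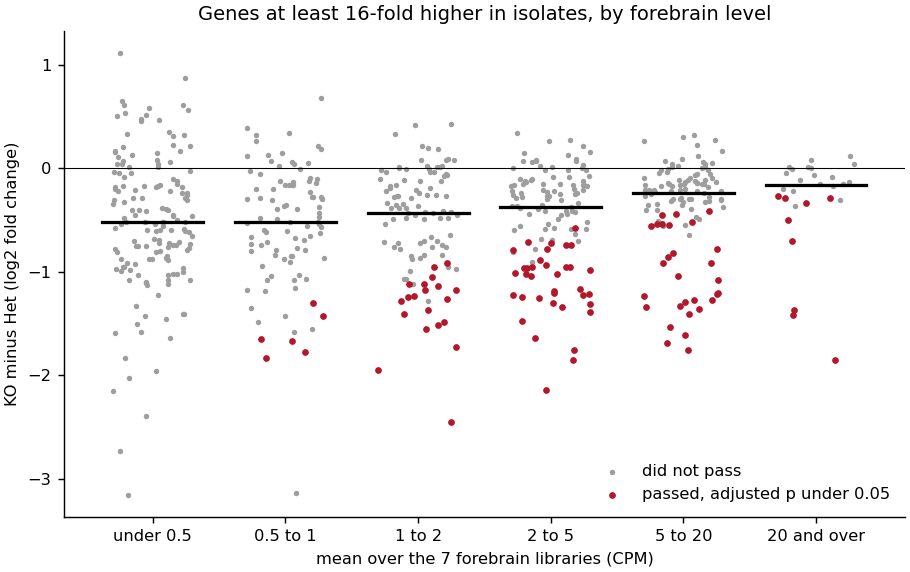
Log2 fold change, KO minus Het, of the 620 tested genes at least 16-fold higher in isolates, by mean level over the 7 forebrain libraries in CPM; black bars are medians and red points passed the test. No gene below 0.5 CPM passed, and the median of those tested there was -0.52; at 20 CPM and over 9 of 28 passed and the median was -0.16.

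Besides Rasal3 and Abcc3, the 10 low-level genes with the smallest p include Slc11a1, a metal transporter of the phagosome (1.39, 1.65, 1.01 and 1.44 CPM in Het against 0.37, 0.519 and 0.285 CPM in KO), Tifab, an inhibitor of TIFA signalling (2.21, 1.82, 1.75 and 1.86 CPM in Het against 0.462, 0.76 and 0.38 CPM in KO), and Gna15, a G-protein alpha subunit of blood cells (1.75, 1.37, 1.32 and 1.58 CPM in Het against 0.462, 0.593 and 0.428 CPM in KO). Fitted KO levels of these 3 were 29.2%, 30.1% and 34.1% of Het. Itgb2, the shared beta chain of leukocyte integrins, had 2.08, 2.67, 1.88 and 2.19 CPM in Het against 1.08, 0.668 and 0.618 CPM in KO. Cd86, a costimulatory ligand, had 2.45, 2.85, 2.22 and 2.54 CPM in Het against 1.29, 1.02 and 1.05 CPM in KO. In each of these 5 genes every KO library lay below every Het library. They were picked by a small p, and 117 of the 119 lower genes had such a separation, against 5.14% of all genes tested. The uncharacterised gene I830077J02Rik had 1.12, 1.5, 1.55 and 1.19 CPM in Het against 0.40, 0.371 and 0.333 CPM in KO, and Fcer1g had 2.23, 2.41, 2.2 and 2.36 CPM in Het against 1.02, 1.08 and 0.76 CPM in KO. The counts behind these values are small: Rasal3 had 411 reads over all 7 libraries. Without KO animal 3, the only KO male, 9 low-level genes passed in place of 26. Without KO animal 6 or 24 the count was 10 or 13, and without Het animal 1 or 20 it was 16. In the females alone (2 KO and 2 Het) 3 passed.

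Some genes that are much higher in isolates differed little between KO and Het forebrain. A gene was called level where the 95% interval of its log2 fold change lay wholly within 0.32 of 0. By this measure 46 of the 620 tested isolate-enriched genes were level, against 10993 of all 19343 genes (56.8%). All 46 were among the 264 genes at 2 CPM and over, since no interval was that narrow below. The 5 with the highest level were Klf6, Kdm6b, Ifrd1, Sat1 and Grn. Klf6, a zinc-finger transcription factor, had 66.7, 64.2, 65.2 and 67.6 CPM in Het against 72.2, 67.4 and 69.6 CPM in KO, and the interval of its log2 fold change was -0.0083 to 0.18. Kdm6b, a histone demethylase, had 38.4, 38.9, 36.5 and 39 CPM in Het against 37.9, 41.4 and 34.4 CPM in KO (interval -0.14 to 0.12). Ifrd1, a transcriptional coregulator, had an interval of -0.14 to 0.22, Sat1, a polyamine-metabolising enzyme, one of -0.23 to 0.054, and Grn, the lysosomal growth factor progranulin, one of -0.29 to -0.013. Level does not mean equal: the interval of Grn and of 4 others of the 46 lay wholly below 0, and the other 41 intervals held 0. Csf1 is also among the 46, being 5.19 log2 units higher in isolates than in forebrain. Of 23 lysosomal genes 16 were level and 2 were lower, and the list median was -0.092. The protease gene Lgmn, which was lower, had 85.2, 88.9, 85.9 and 82.6 CPM in Het against 68.9, 73.4 and 71.3 CPM in KO. Lgmn did not pass without KO animal 3 or without KO animal 24.

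Of the 19 lower genes outside the isolate-enriched class, 9 were genes of the myelin list. Myelin is the lipid-rich membrane that oligodendrocytes wrap around axons, and Mbp encodes one of its most abundant proteins. Of 19 genes of myelinating oligodendrocytes 9 were lower (against 0.615% of all genes), none was higher, none was level, and all 19 had a fold change below 0. The median log2 fold change was -0.32, or 80.3% of Het, and 18 of 19 had an unadjusted p under 0.05. Mbp had 2234, 2585, 2237 and 2241 CPM in the Het libraries and 1763, 1929 and 1749.6 CPM in the KO libraries, at 77.3% of Het. Every KO library lay below every Het library, and the log2 fold change was -0.37 ± 0.055 (SE; adjusted p = 0.00614, edgeR with Benjamini-Hochberg adjustment). Mog, a protein of the outermost myelin layer, had 65.1, 84, 68.2 and 70.2 CPM in Het against 51.6, 57 and 56.9 CPM in KO, at 75.2% of Het. Trf, the iron carrier transferrin, which in brain is made largely by oligodendrocytes, had 93.3, 111, 108 and 107 CPM in Het against 78.7, 83.7 and 84.2 CPM in KO. In Mog and Trf too the groups did not overlap, and Het animal 20 was the highest library throughout.

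Members that passed also included, named here although the naming rule stops at 4 per list, the tight-junction gene Cldn11 (-0.32), Cnp (-0.30), Mobp (-0.33), Mal (-0.45) and Fa2h (-0.31), which hydroxylates myelin lipids. Mal had 159, 211, 197 and 199 CPM in Het against 137, 128 and 162 CPM in KO, and its groups overlapped, since KO animal 24 lay above Het animal 1. Summed over the list, levels were 6298 to 7550.0 CPM in Het and 5208 to 5572 CPM in KO. None of the 19 genes is in the isolate-enriched class; their isolate values ran from -0.65 to 3.02 log2 units with a median of -0.25. The homeostatic microglia list had a median of -1.34, or 39.4% of Het.

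The direction and size of the myelin decrease held under all 14 alternatives, with list medians of -0.26 to -0.37 and all 19 genes below 0 in each, but the number that passed did not. Without KO animal 3 none of the 19 passed, with a median of -0.35. With all 15 forebrain libraries in 1 fit none passed either (median -0.30), and in the females alone 1 passed (median -0.35), without the sex term 4. With the sex term kept, the fit without KO animal 3 also takes its fold changes from the females alone. It and the females-only fit are therefore not separate checks. Without Het animal 21 or without KO animal 6, 5 passed. By DESeq2 13 passed.

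**Figure D3:**
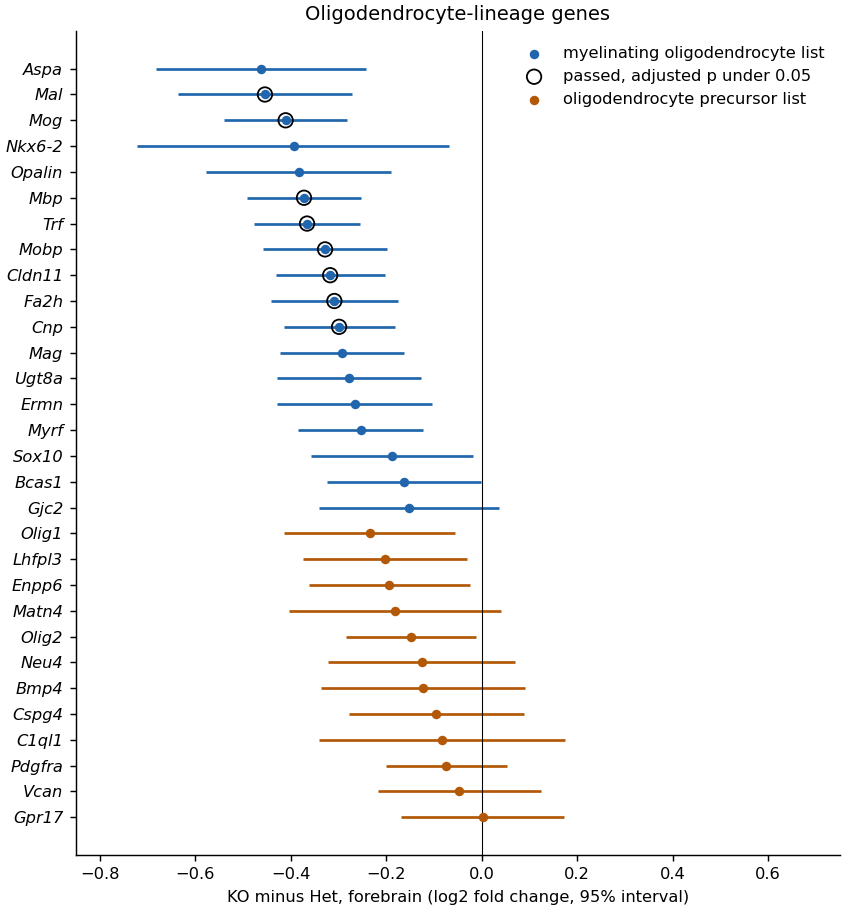
Log2 fold change, KO minus Het, with 95% intervals for 18 of the 19 genes of myelinating oligodendrocytes (blue) and the 12 of oligodendrocyte precursors (orange); circles mark genes that passed the test. All 18 blue points and 11 of 12 orange points lie below 0; 8 blue and no orange points are circled.

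Precursors of oligodendrocytes gave smaller values. By edgeR none of 12 precursor genes passed (4 lower and 0 higher at an unadjusted p under 0.05, DESeq2 calling 0), 5 were level and 11 lay below 0, with a median of -0.12, and their summed levels overlapped (569.9 to 685 CPM in Het and 531 to 623 CPM in KO). Pdgfra, the growth factor receptor that defines these cells, had 107, 118, 101 and 98 CPM in Het against 98.9, 104 and 100.5 CPM in KO, with an interval of -0.20 to 0.052. Gpr17, a receptor of cells committed to differentiate, had 171, 172, 151 and 147 CPM in Het against 166, 174 and 138 CPM in KO, with an interval of -0.17 to 0.17. Lhfpl3 had an interval of -0.37 to -0.031. Sox10, which both stages express and which was placed in the myelin list, had a log2 fold change of -0.19 ± 0.078 (SE) and did not pass. Whether myelin genes and precursor genes differ from each other was not tested. Cholesterol synthesis, which supplies myelin with its main sterol, was level in 15 of 16 genes (median -0.0008, with 0 lower and 1 higher at an unadjusted p under 0.05 and no call by either tool). Hmgcs1, an early enzyme of that pathway, had 551, 535, 554 and 565 CPM in Het against 515, 567 and 541 CPM in KO.

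The SOX-type letters were in the windows of 2 of the 5 lower myelin genes that had one, Cnp and Mobp, and the PU.1-type letters in none of the 5. Over all genes 6.68% held the SOX-type and 3.69% the PU.1-type letters. Only 5 of the 9 lower myelin genes had a window, too few to compare with these shares. The windows of Cnp and Mobp are printed with the letters in capitals. Mobp holds 4 matches, the first of which begins 243 bases before the start, and Cnp 1, at 168 bases before it.
Cnp (chr11:100574689-100574988, plus strand): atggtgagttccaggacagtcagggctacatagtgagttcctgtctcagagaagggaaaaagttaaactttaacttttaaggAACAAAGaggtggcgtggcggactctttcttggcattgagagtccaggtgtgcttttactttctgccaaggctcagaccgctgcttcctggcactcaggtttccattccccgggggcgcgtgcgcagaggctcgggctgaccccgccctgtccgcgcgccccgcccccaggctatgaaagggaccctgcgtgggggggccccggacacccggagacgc
Mobp (chr9:120149492-120149791, plus strand): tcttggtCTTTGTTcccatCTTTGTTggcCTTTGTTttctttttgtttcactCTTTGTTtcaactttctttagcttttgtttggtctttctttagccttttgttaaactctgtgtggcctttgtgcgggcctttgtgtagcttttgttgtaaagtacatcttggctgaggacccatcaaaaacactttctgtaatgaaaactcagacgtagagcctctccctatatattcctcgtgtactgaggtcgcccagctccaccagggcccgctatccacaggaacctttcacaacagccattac

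Besides Il34, Maf and the 9 myelin genes, 8 genes that are not isolate-enriched were lower, and they are named here after their values were seen. Tspan2 (-0.35) and Pllp (-0.32), both membrane proteins found in myelin, Tmem88b (-0.31) and Lpar1 (-0.36), a lysophosphatidic acid receptor of oligodendrocytes, had decreases close to the median of the myelin list. Gm38642 (-0.46) is a long non-coding RNA whose span meets that of Mobp on the same strand, so its reads may not be separate from those of Mobp. Tmem63a (-0.47) encodes a mechanosensitive ion channel. A830008E24Rik (-1.15) and Cyp2j12 (-0.91) fell further, from Het means of 1.36 and 2.29 CPM. None of these 8 calls was kept in all 7 fits that left out 1 library. Lpar1, Gm38642 and Tmem63a passed in 4 of the 7, Tspan2 in 3, A830008E24Rik in 2, Pllp and Tmem88b in 1 and Cyp2j12 in 0.

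**Figure D4:**
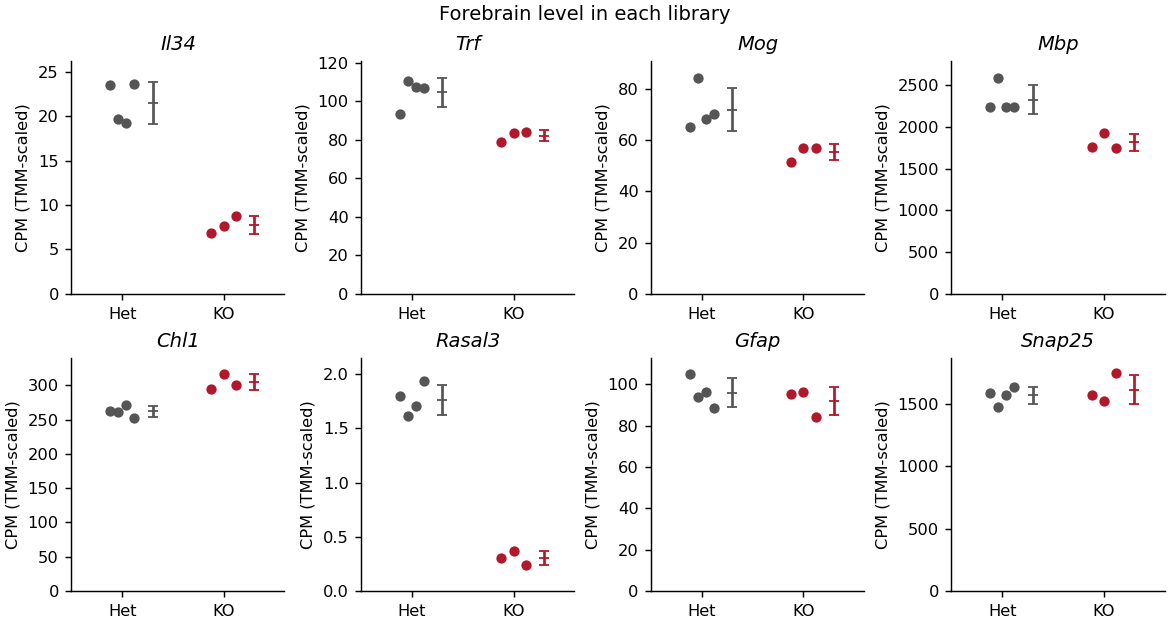
Levels of 8 genes in each of the 7 libraries, in TMM-scaled CPM; points are libraries (4 Het, 3 KO), offset only for sight, and bars are the mean and SD. KO libraries lie below all Het libraries for Il34, Rasal3, Trf, Mog and Mbp and above them for Chl1; for Gfap and Snap25 the groups overlap.

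Of 27 pan-neuronal and synaptic genes none passed by edgeR or DESeq2 and 26 were level, with a median of 0.041. A high share of level genes was usual among well-measured genes of any kind, 7787 of 7999 at 20 CPM and over and 2947 of 4075 at 5 to 20 CPM. The level counts of the cell type lists are to be read against these shares. Snap25, a protein of synaptic vesicle fusion, had 1590.1, 1475, 1576 and 1636 CPM in Het against 1573, 1528 and 1749 CPM in KO, and the interval of its log2 fold change was -0.079 to 0.16. Of 15 excitatory neuron genes none passed and 10 were level (median 0.038); DESeq2 called 1 higher. At an unadjusted p under 0.05 the first list had 0 lower and 2 higher and the excitatory list 0 lower and 3 higher. Camk2a, the kinase of excitatory synapses, had 2372, 2161, 2051 and 2356 CPM in Het against 2392, 2072 and 2352 CPM in KO (interval -0.11 to 0.17). Of 16 inhibitory neuron genes 11 were level (median -0.052), and of 11 striatal projection neuron genes 10 were level (median -0.023). Neither list gave a call by edgeR or DESeq2, with 1 lower and 0 higher and 0 lower and 0 higher at an unadjusted p under 0.05. Gad1, the enzyme that makes GABA, had an interval of -0.16 to 0.12, and Ppp1r1b, which encodes the striatal phosphoprotein DARPP-32, one of -0.28 to 0.083.

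All 19 astrocyte genes had a negative fold change. The median was -0.078, 17 were level and none passed by edgeR (3 lower and 0 higher at an unadjusted p under 0.05, DESeq2 calling 1 lower). Slc1a2, the main glutamate transporter, had 6057, 5937, 5421 and 5833 CPM in Het against 5669.7, 5366 and 5792 CPM in KO, with an interval of -0.16 to 0.054. Gfap, the intermediate filament protein that rises in reactive astrocytes, had 105, 94, 96.1 and 88.4 CPM in Het against 95.3, 96.2 and 83.9 CPM in KO, with an interval of -0.16 to 0.081. None of 16 reactive astrocyte genes passed by edgeR or DESeq2 in either direction (median -0.12; 2 lower and 1 higher at an unadjusted p under 0.05), and 4 of them were level. Vim had an interval of -0.19 to 0.071. Of the vascular genes, 16 of 19 endothelial genes (median -0.079) and 6 of 13 mural cell genes (median -0.058) were level, and none passed by edgeR or DESeq2. At an unadjusted p under 0.05 the endothelial list had 2 lower and 1 higher and the mural list 0 lower and 0 higher. Flt1, a VEGF receptor, had 70.2, 80.6, 76.5 and 79.3 CPM in Het against 73.3, 69.4 and 72.8 CPM in KO, and Pdgfrb, the receptor that marks pericytes, had 30.4, 27.7, 29.4 and 29.7 CPM in Het against 32.4, 28.8 and 26.5 CPM in KO. Meningeal fibroblast genes (11 tested) also gave no call by either tool (1 lower and 0 higher at an unadjusted p under 0.05). Col1a1 and Col1a2, the chains of type I collagen, were high in 1 library, Het animal 20, at 88.7 and 116 CPM against at most 29.3 and 52.5 CPM elsewhere.

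**Figure D5:**
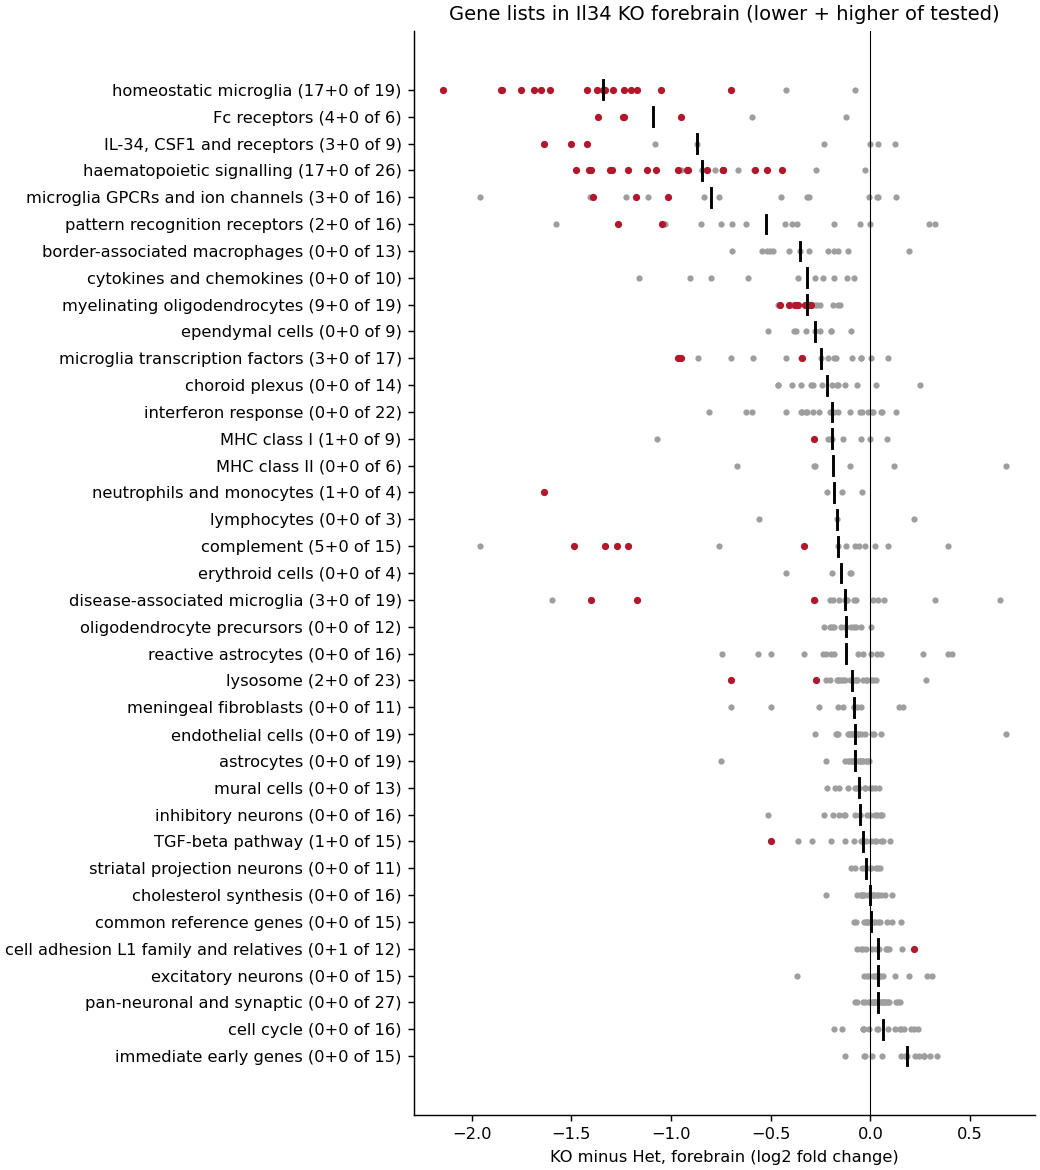
Log2 fold change, KO minus Het, of every tested member of 37 gene lists; black bars are list medians, red points passed the test, and the labels give lower plus higher calls of members tested. The medians furthest below 0 are those of homeostatic microglia, Fc receptors, IL-34, CSF1 and their receptors, and haematopoietic signalling, with myelinating oligodendrocytes at a median of -0.32, and neuronal, astrocyte, vascular and reference genes close to 0.

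Other immune cells of the brain and its borders were read from their own markers. Of 13 genes of border-associated macrophages, which sit in the meninges and around vessels, none passed by edgeR (4 lower and 0 higher at an unadjusted p under 0.05, DESeq2 calling 1 lower). Of the 13, 12 lay below 0 and the median was -0.35, or -0.20 without KO animal 3. Stab1, a scavenger receptor, had 15.2, 14, 17.3 and 15 CPM in Het against 9.24, 11.3 and 12.1 CPM in KO; its groups did not overlap, and its adjusted p was 0.0503 (edgeR with Benjamini-Hochberg adjustment). Mrc1, the mannose receptor, had 9.31, 7.69, 10.8 and 10.5 CPM in Het against 6.72, 8.4 and 7.03 CPM in KO, and its groups overlapped. Summed over the list, levels were 45.8 to 53.8 CPM in Het and 36.5 to 41.6 CPM in KO, without overlap. Of these 13 genes 11 are isolate-enriched, and whether their values differ from those of microglia genes was not tested. Neutrophil and monocyte markers were near the limit of detection: 11 of 15 had too few counts to be tested, among them S100a8, Ly6c2, Ngp and Camp, with at most 46 reads in any library. The 1 that passed was Csf3r. Of 15 lymphocyte markers 12 could not be tested, with at most 12 reads in any library, and none of the 3 others passed.

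None of 22 interferon-stimulated genes passed by edgeR or DESeq2 (5 lower and 0 higher at an unadjusted p under 0.05). The median was -0.19, and 17 lay below 0; without KO animal 3 the median was -0.0059. Trim30a, an antiviral family member, had 21.5, 23.1, 22.6 and 24.2 CPM in Het against 19.5, 20.2 and 13.5 CPM in KO, with KO animal 24 apart from the other KO libraries. Stat2, the interferon signal transducer, had 24.9, 24, 25.4 and 23.4 CPM in Het against 23.1, 25.7 and 27.6 CPM in KO. Of 9 MHC class I genes 1 was lower, B2m, the light chain of the complex (32.5, 32.1, 33 and 34.2 CPM in Het against 25.3, 28.7 and 28 CPM in KO; 82.2% of Het), and the median was -0.19. The call for B2m was kept in 1 of the 7 fits that left out 1 library. H2-D1, a heavy chain, had 11.6, 12.4, 11.4 and 11.8 CPM in Het against 9.67, 12.2 and 10.5 CPM in KO. None of 6 class II genes passed by either tool (median -0.19; 0 lower and 0 higher at an unadjusted p under 0.05), and their invariant chain Cd74 was low throughout, with 1.92, 2.26, 1.95 and 2.29 CPM in Het against 2.13, 1.82 and 2.04 CPM in KO.

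Genes of the ventricular lining gave no call by edgeR, with wide intervals; DESeq2 called 1 choroid plexus gene lower. The 14 choroid plexus genes had a median of -0.22 with 1 level, and the 9 ependymal genes a median of -0.28 with none level; at an unadjusted p under 0.05 they had 3 lower and 0 higher, and 1 lower and 0 higher. The choroid plexus median was -0.044 without KO animal 3. Ttr, the thyroid hormone carrier made by the choroid plexus, had 149, 162, 127 and 162 CPM in Het against 69.96, 169 and 145 CPM in KO; KO animal 3 was far below all others, and the other 2 KO libraries lay within the Het range or above it. Foxj1, the regulator of motile cilia, had 4.98, 4.89, 4.22 and 3.79 CPM in Het against 4.41, 3.65 and 3.42 CPM in KO. Immediate early genes, which respond to neuronal activity and handling, had a median of 0.19 over 15 genes. None passed by edgeR or DESeq2 (0 lower and 3 higher at an unadjusted p under 0.05), and 12 lay above 0; without KO animal 3 the median was -0.027, below 0. Their spread within the Het group was wide: Egr1 had 191, 202, 122 and 292 CPM in Het against 237, 238 and 216 CPM in KO, and Nr4a1 had 49.2, 65.8, 42 and 98.1 CPM in Het against 77, 88 and 82.2 CPM in KO. All KO values lay inside the Het range for both genes. Cell cycle genes had a median of 0.062 over 16 genes, and none passed by either tool (0 lower and 0 higher at an unadjusted p under 0.05). Mki67, a marker of dividing cells, had 15.3, 14.1, 12.1 and 14.9 CPM in Het against 18, 18.2 and 13.1 CPM in KO. Of 4 tested erythroid genes, a measure of blood left after perfusion, none passed by either tool (1 lower and 0 higher at an unadjusted p under 0.05), and Hbb-bs, a haemoglobin chain, had 19.5, 12.9, 8.93 and 12.6 CPM in Het against 17.2, 9.7 and 10.4 CPM in KO.

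The gene that was higher in KO was Chl1 (chromosome 6, 103510586 to 103750211), a neuronal adhesion molecule of the L1 family. It had 263, 261, 272 and 253 CPM in the Het libraries and 296, 317 and 301 CPM in the KO libraries. The KO libraries lay above all Het libraries, as they did for 3.91% of all genes tested, and the fitted KO level was 116% of Het. The log2 fold change was 0.22 ± 0.043 (SE; adjusted p = 0.0468, edgeR with Benjamini-Hochberg adjustment). Chl1 did not pass in any of the 7 fits that left out 1 library, where its fold change stayed between 0.19 and 0.27. The other 11 genes of the L1 family and its relatives gave no call by edgeR (DESeq2 called 2 of the 12 higher), and all 12, Chl1 included, were level by the interval, with a median of 0.037. Nrcam had 592, 543, 609 and 587 CPM in Het against 586, 634 and 631 CPM in KO, and Cntn1 had 704, 658, 715 and 693 CPM in Het against 717, 752 and 743 CPM in KO. The sum over the 12 genes was 3762 to 3939 CPM in Het and 3929 to 4092 CPM in KO.

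Genes that stayed level made up most of the well-measured transcriptome. At 20 CPM and over 7787 of 7999 genes with an isolate value were level, at 5 to 20 CPM 2947 of 4075 and at 2 to 5 CPM 259 of 1997. Below 2 CPM no interval was narrow enough, so no gene of that range could be called level. With a wider limit of 1.5-fold, 14265 genes were level (73.7%). All 15 common reference genes were level, with a median of 0.0017. Actb, cytoskeletal actin, had 922, 793, 755 and 838 CPM in Het against 828, 808 and 799 CPM in KO, with an interval of -0.15 to 0.11. Ywhaz, a 14-3-3 protein, had an interval of -0.077 to 0.11, and Eef1a1, a translation elongation factor, one of -0.13 to 0.067. By isolate enrichment, the share of level genes was 57.8% among those more than 2 log2 units lower in isolates. It was 71% at 0 to 2 units lower and 65.2% at 0 to 2 units higher. Further up it was 45.9% at 2 to 3 units higher, 29.3% at 3 to 4, 11.9% at 4 to 5, 3.77% at 5 to 6 and 0% of the 88 genes at 6 or more. Isolate-enriched genes were also measured less exactly. Of the 620 tested, 356 had a mean below 2 CPM, and the class had a median SE of 0.21, against 0.074 for genes not enriched. The part of precision in these shares was not tested.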

How the data were processed

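The authors deposited raw read counts per gene for every library. STAR 2.7.5c, featureCounts 1.6.3, R 4.4.0 and the GRCm38 build are named in the submitters' processing notes; the strand setting of the counting is not given in the sources used here, and the kit does not mark strand, so reads of genes that overlap on opposite strands cannot be told apart. Of the 119 lower genes, 51 overlap another gene. The count table also holds 6 per-sample columns that were not used here.

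KO was compared with Het by edgeR 4.0.16 in R 4.3.3 (TMM scaling, filterByExpr on the group, sex as covariate, quasi-likelihood F test, Benjamini-Hochberg at 0.05); 19343 of 51752 listed genes passed the filter. SE is the coefficient divided by the square root of F, and 95% intervals use the total degrees of freedom. Isolate enrichment came from the same test on the 4 anti-gp120 animals. Their isolate and forebrain libraries come from the same animals, per the labels; deviations from group means correlated at 0.211, 0.0865, 0.220 and 0.103. No pair of replicates differed by as little as sampling noise (lowest chi-square per degree of freedom 5.84). Whether animals of a group were littermates is not stated. The scripts were tested on simulated counts. The 7 libraries and their number limit the precision.

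Named genes are Il34, Csf1 and Csf1r; up to 5 higher genes; the 15 lower genes with the smallest p outside the homeostatic list; the 10 with the smallest p among isolate-enriched genes under 2 CPM; per list up to 4 members that passed or, where fewer than 2 passed, the 3 with the highest level; and the 5 highest isolate-enriched level genes. A few genes that the rule names are not reported here. The members and the lists were chosen with earlier results of these data known, so no list count is independent support. Alternatives were other size factors (RLE), other filters, no sex term, all 15 forebrain libraries, females only, DESeq2 1.42.0 and leaving out each library.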

Additional observations from a re-analysis of the deposited data

Results flagged for a closer look

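In 8 of 129 named genes the Het group held 1 library far from the other 3 by Dixon's test at the 95% level; chance alone flags about 1 group in 20. Het animal 20 was the library apart in 6 of the 8. Mbp was at 2585 CPM in it against 2241 CPM in the next library, Tapbp at 14.4 against 12.9 CPM and Kdr at 50.2 against 48.0 CPM. Col1a1 was at 88.7 against 26.5 CPM and Col1a2 at 116 against 49.3 CPM in the same library, and Ccr2 was lowest in it, at 0.204 CPM against 0.381 CPM. Without Het animal 20, 6 of the 19 myelin genes passed in place of 9, and their median was -0.26.

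Unc93b1 was lowest in Het animal 23, at 7.25 CPM against 7.94 CPM. Rgs9, a striatal gene, was lowest in Het animal 21, at 271 CPM against 316 CPM.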

How the results depend on the processing

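No tested alternative turned the direction of a named gene that passed, and the median of all genes stayed between -0.0030 and 0.0032. The 120 genes that differed became 381 with no filter on low counts and 40 in females only; lower genes became 343 and 40. With 1 library left out, 55 to 117 genes differed and 55 to 113 were lower, and 46 of the 120 passed in all 7 such fits. Genes higher numbered 38 with no filter, 0 with a mean of at least 1 CPM, 0 with all 15 forebrain libraries, 0 in females only, 5 by DESeq2 and 0 to 4 with 1 library left out. Lower myelin genes numbered 16 with no filter, 4 without the sex term, 0 with all 15 libraries, 1 in females only and 0 to 10 with 1 library left out. Lower isolate-enriched genes numbered 176 with no filter, 38 in females only and 54 to 88 with 1 library left out. Those under 2 CPM numbered 70, 3 and 9 to 22. Enriched genes numbered 1473 at 8-fold, 491 at 32-fold and 903 (899 shared) in a replicate block fit that pairs libraries of an animal. No paired analysis was possible because Het and KO share no animal number. Of the fits without 1 library, that without KO animal 3, the only KO male, had the fewest genes that differed. With the sex term kept, its KO minus Het values come from the females alone, as in the females-only fit. Whether animal 3 itself differs from the other KO animals was not tested. Animal number limits all values, and depth limits those under 2 CPM.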
